A study of Capra hircus with 3 samples.

Results

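The 10 enzymes described here carry glucose 6-phosphate to lactate in skeletal muscle, in the order GPI, PFKM, ALDOA, TPI1, GAPDH, PGK1, PGAM2, ENO3, PKM and LDHA. Their rows were found among the 24689 entries of the deposited table by gene number, looked up by RefSeq symbol in 9 cases and by synonym for LDHA, and the product text of each row names the enzyme. The LDHA row is named only as lactate dehydrogenase, and the RefSeq symbol of its gene number (100860870) is LDH-A. The study sequenced RNA from the longissimus dorsi, a long back muscle, of goats (Capra hircus) at 3 ages, with a kid library at 2 months, a youth library at 9 months and an adult library at 24 months, 1 per age. No treatment or genotype is named for any stage, and the labels do not state sex, breed or how many animals a library holds. The extraction protocol names mammary tissue, but 5 of 5 milk protein genes were listed at 0 in every library, while the 6 skeletal muscle markers summed to 52768, 61628 and 71108 FPKM in kid, youth and adult. FPKM are fragments relative to gene length and library size, so levels can be compared between genes. With 1 library per stage there is no replicate, no test was possible, and every difference is one between these libraries.

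Glycolysis splits glucose into pyruvate, and lactate dehydrogenase then reduces pyruvate to lactate, which returns the NAD+ that GAPDH needs. The pathway supplies ATP faster than respiration can, and fast-twitch fibres, which make up much of the longissimus dorsi in hoofed animals, are known for high levels of its enzymes. Several steps have a form found mainly in muscle (PFKM, PGAM2, ENO3), encoded by its own gene beside the forms of other tissues.

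The 10 enzymes were among the most abundant transcripts of this muscle and differed little between the 3 libraries. Their summed FPKM were 26265, 27802 and 25524 in kid, youth and adult, which is 4.98%, 5.34% and 4.69% of each library. The least abundant, GPI, stood at rank 257, 211 and 254 of all entries in the 3 libraries. On the scale of log2(FPKM + 1), which all counts at a fold use, 0 of the 10 were 1.5-fold apart in each pair of libraries. Among the 12121 genes whose mean reached 1 FPKM, 5.27% were that far apart in youth against kid. The share was 10.9% in adult against youth and 9.24% in adult against kid. A second background was formed by the 630 genes whose mean reached 100 FPKM, of which 60.8% lay below GPI, the least abundant enzyme. Of these 4.13%, 14.9% and 9.84% were 1.5-fold apart in the same comparisons. At such shares a count of 0 in 10 is no result about the enzymes. At 2-fold the shares of the 12121 genes were 1.05%, 2.08% and 1.76%, again with 0 enzymes. At a difference of 25% they were 20.9%, 32.3% and 32.1%, with 1 enzyme (PGK1) between youth and kid and 0 in the others as deposited, and up to 3, 2 and 1 under other scalings.

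In the first steps, GPI (gene 102189150), which turns glucose 6-phosphate into fructose 6-phosphate, stood at 278, 335 and 299.7 FPKM in kid, youth and adult. PFKM (gene 102186091), the muscle form of phosphofructokinase and the main control point of the pathway, was at 624, 704 and 600.4 FPKM. Both were highest in the youth library, PFKM lowest in adult and GPI lowest in kid. Aldolase A (ALDOA, gene 102187016), which splits fructose bisphosphate into a pair of triose phosphates, was at 9622, 9933 and 9261 FPKM. It was the most abundant of the 10 in every library, at 34.6, 29.6 and 30.9 times the level of GPI. TPI1 (gene 102168433), which interconverts the triose phosphates, was at 992, 1051 and 1225 FPKM. With the values as deposited, it was the only one of the 10 whose level was highest in the adult library.

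Among the later steps, GAPDH (gene 100860872), which oxidises glyceraldehyde 3-phosphate and makes NADH, was at 7438, 8141 and 7182 FPKM in kid, youth and adult. ALDOA and GAPDH together made up 65.0%, 65.0% and 64.4% of the 10 enzymes' FPKM. PGK1 (gene 102185725), which makes the first ATP of the pathway, was at 433, 569 and 471 FPKM and showed the widest range of the 10, with 1.31 between its highest and lowest library. PGAM2 (gene 102169807), the muscle form of phosphoglycerate mutase, was at 1758, 1907 and 1764 FPKM. Beta-enolase (ENO3, gene 102174691), the muscle form that makes phosphoenolpyruvate, was at 3249, 3096 and 2745 FPKM, and it was the only one with its highest level in the kid library. Pyruvate kinase (PKM, gene 102178731), which makes the second ATP, was at 888, 1018 and 949 FPKM. Its M1 and M2 splice forms share this row and cannot be separated. LDHA, the lactate dehydrogenase subunit typical of fast muscle, was at 983, 1047 and 1026 FPKM, the narrowest range of the 10 at 1.07. In all, 8 of the 10 were highest in the youth library, as were 22.5% of the 630 abundant genes. That count was 8 under the scalings to a common sum, by the median of gene ratios and by a trimmed mean of them. Its members changed by the median and the trimmed mean, where ENO3 became highest in youth and LDHA highest in adult. With those scalings 0 enzymes were highest in kid and 2, TPI1 and LDHA, in adult. It was 7 after quantile normalization, where GAPDH was level in kid and youth. Scaled to GAPDH, itself a member of the set, it was 2 of the other 9.

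The order of levels was the same in all 3 libraries: ALDOA, GAPDH, ENO3, PGAM2, TPI1, LDHA, PKM, PFKM, PGK1 and GPI. One pair of neighbours could not be ordered in 2 of the libraries. The ratio TPI1:LDHA was 1.01 in kid (95% interval 0.990 to 1.03) and 1.004 in youth (0.985 to 1.02), so it included 1, while in adult it was 1.19 (1.17 to 1.21). PKM was below LDHA in each library, at 0.903, 0.972 and 0.925 of its level, with intervals that left out 1. Intervals here and below are exact 95% intervals of the underlying reads, which were worked out from the steps between FPKM values. They cover counting error only and compare libraries, not stages.

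**Figure D1:**
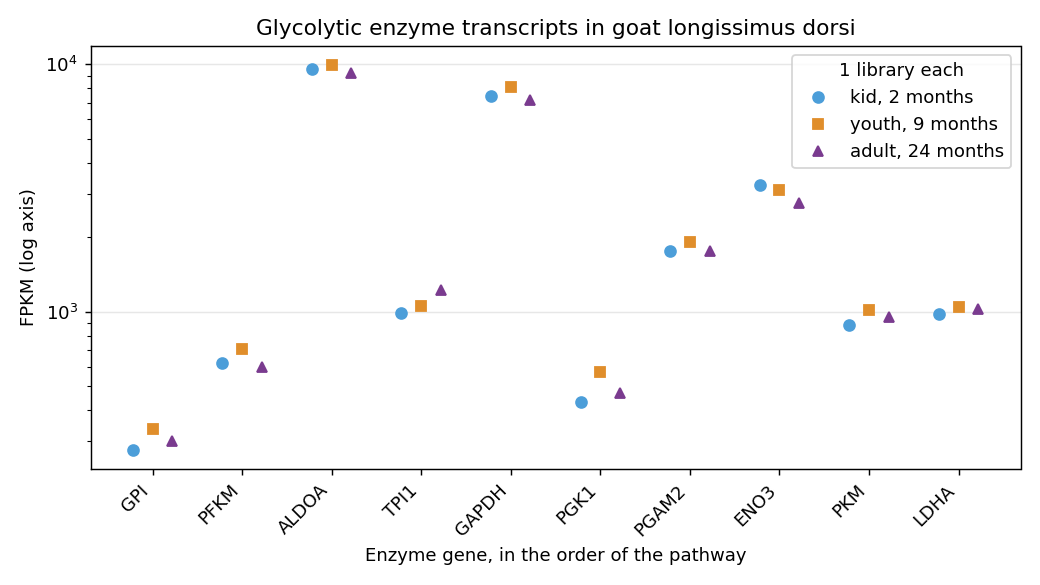
FPKM (log axis) of the 10 enzymes in pathway order, with 1 point per library for kid, youth and adult. The levels run from 278 FPKM for GPI in kid to 9933 FPKM for ALDOA in youth, and the 3 points of a gene lie close together against the distance between genes.

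Between youth and kid, 9 of 10 enzymes were higher in the youth library, all 9 beyond counting error, and ENO3 was lower. Scaled to GAPDH, itself a member of the set, 4 of the other 9 were higher and 5 lower. That scaling takes out what GAPDH shares with the others. It left 9 of 10 enzymes above the median of all genes, beside 10 of 10 as deposited. The median difference of the 10 was 0.12 on the scale of log2(FPKM + 1), beside -0.08 over the 12121 genes and -0.07 over the 630 abundant ones. Of the 12121 genes 11.6% were higher beyond counting error, and of the 630 abundant genes 30% were. The enzymes have more reads than most genes of both backgrounds, so smaller ratios pass for them, in either direction. Lower beyond counting error were 26.9% and 50.6%, beside 1 of 10 enzymes. PGK1 was 1.31-fold higher in youth (interval 1.28 to 1.34), the widest of these ratios. GPI followed at 1.21-fold (1.17 to 1.24), PKM at 1.15-fold (1.13 to 1.16) and PFKM at 1.13-fold (1.11 to 1.14). The 3 kinases of the set, PGK1, PKM and PFKM, were thus among the 4 widest ratios in this comparison, but not in the others. Between adult and youth PKM was only 1.07-fold lower (1.06 to 1.09). GAPDH, PGAM2, LDHA, TPI1 and ALDOA were between 1.03-fold and 1.09-fold higher. ENO3 was 1.05-fold lower (1.02 to 1.08), but higher when the libraries were scaled by the median of their gene ratios or by a trimmed mean of them. With those scalings 10 of 10 were higher in youth. The difference was small for the most abundant transcript: ALDOA, with 235198 reads in youth and 241710 in the deeper kid library, was 1.03-fold higher in youth (1.03 to 1.04).

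Between adult and youth, 9 of 10 enzymes were lower in the adult library, all 9 beyond counting error, and TPI1 was higher. Scaled to GAPDH, itself a member of the set, 2 of the other 9 were lower and 7 higher. On that scaling 2 of 10 enzymes were above the median of all genes, beside 1 of 10 as deposited. The median difference was -0.14 on the log2 scale, beside -0.02 over all 12121 genes and 0.05 over the 630 abundant ones. Lower beyond counting error were 27% of the 12121 genes and 37% of the 630, and higher were 22.3% and 48.4%. PGK1 again had the largest ratio, 1.21-fold lower in adult (1.18 to 1.24), followed by PFKM at 1.17-fold (1.16 to 1.19), GAPDH and ENO3 at 1.13-fold and GPI at 1.12-fold. LDHA was only 1.02-fold lower (1.004 to 1.04), and it was above 0 on the log2 scale after either of the ratio-based scalings, which left 8 of 10 lower. TPI1 was 1.17-fold higher in adult (1.14 to 1.19). The youth library belongs to both comparisons, and a feature of that library alone would show in both with opposite sign.

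Between adult and kid the enzymes showed no common direction. PGAM2 had 1.004 times its kid level in adult (0.987 to 1.02), the only one of these ratios whose interval included 1. Of the other 9 enzymes, 5 were higher and 4 lower in adult beyond counting error, beside 16.7% of all genes higher and 34.6% lower. Of the 630 abundant genes 49.5% were higher and 38.9% lower. The median difference was 0.03 beside -0.10 over all genes. The extremes were TPI1, 1.24-fold higher (1.21 to 1.26), and ENO3, 1.18-fold lower (1.15 to 1.21). ALDOA, GAPDH and PFKM were each 1.04-fold lower, and all 3 turned to higher under both ratio-based scalings. These scalings moved the median of all genes by 0.12 on the log2 scale, which is larger than most of the enzymes' differences between adult and kid. Relative to that median, 9 of 10 enzymes were above it in adult with the values as deposited and with both ratio-based scalings, and 6 of 10 after quantile normalization.

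**Figure D2:**
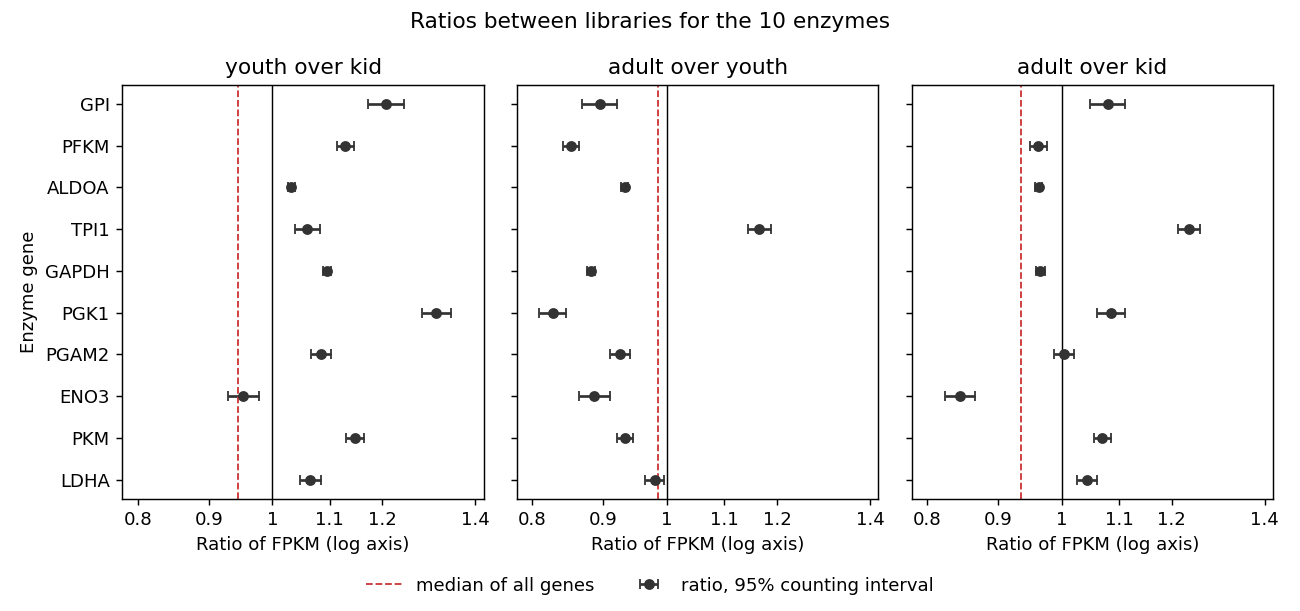
Ratios of FPKM (log axis) between libraries for the 10 enzymes, in 3 panels for youth over kid, adult over youth and adult over kid, with 95% counting intervals as bars and the median of all genes as a dashed line. In the first panel 9 points lie right of 1 (10 under the ratio-based scalings). In the second 9 lie left of it (8 under those scalings), and TPI1 and ENO3 mark the 2 ends of the third. Scaled to GAPDH, itself a member of the set, 4 of 9 would lie right of 1 in the first and 2 of 9 left of it in the second.

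Ratios between enzymes within a library are not altered by a scaling that multiplies the whole library by 1 factor. The ratio TPI1:ENO3 was 0.305 in kid (0.298 to 0.312), 0.340 in youth (0.332 to 0.348) and 0.446 in adult (0.437 to 0.456), and no 2 of these intervals overlap. The ratio GAPDH:ALDOA was 0.773 in kid (0.768 to 0.778), 0.820 in youth (0.814 to 0.825) and 0.775 in adult (0.771 to 0.780), with overlapping intervals in kid and adult and a higher one in youth. The ratio PFKM:GPI was 2.25, 2.10 and 2.003 in kid, youth and adult. Quantile normalization, which does not use 1 factor per library, turned the youth-kid direction of both these ratios, with log2 differences of 0 for GAPDH and 0.15 for ALDOA, and of 0.35 for PFKM and 0.32 for GPI. Relative to GAPDH, TPI1 was 1.28 times as high in adult as in kid, and ENO3 0.875 times. PGK1 and GPI were 1.12 times as high relative to GAPDH in adult as in kid, whereas PFKM and ALDOA were at 0.997 times each. GAPDH is itself a member of the set, so ratios to it take out what it shares with the other enzymes. They therefore cannot show or test the direction of the set given above. ENO3 held 12.4%, 11.1% and 10.8% of the 10 enzymes' FPKM in kid, youth and adult. TPI1 held 3.78%, 3.78% and 4.80%. The recovered ENO3 reads, 12653, 11365 and 12423, are the fewest that its values allow. They and its recovered length of 246 bases may both be smaller than the true ones by a common factor, so its intervals are if anything too wide.

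The muscle forms far exceeded the other forms of the same enzymes. ENO3 made up 98.0%, 97.6% and 97.7% of enolase FPKM in kid, youth and adult. Alpha-enolase (ENO1), the widespread form, was at 66.0, 74.7 and 63.0 FPKM, and gamma-enolase (ENO2), the neuronal form, at 1.23, 0.667 and 0.369 FPKM. PGAM2 made up 98.5%, 98.9% and 98.4% of phosphoglycerate mutase, beside PGAM1, the brain form, at 26.9, 21.2 and 28.9 FPKM. PFKM made up 96.6%, 96.5% and 96.9% of phosphofructokinase, beside the liver form PFKL at 13.2, 13.7 and 10.3 FPKM and the platelet form PFKP at 8.97, 11.9 and 9.17 FPKM. Aldolase B of liver was at 0.752, 0.120 and 0.679 FPKM, aldolase C of brain at 0.319, 0.211 and 0.137 FPKM, and the liver and red-cell pyruvate kinase PKLR at 0.157, 0.143 and 0.116 FPKM. Aldolase A, GAPDH and PKM thus held at least 99.97% of their enzyme's FPKM in each library. Testis forms were also low: GAPDHS was at 1.86, 2.29 and 1.90 FPKM, and PGK2 was listed at 0 in every library. Isozymes are close relatives. The labels do not tell how reads matching several genes were counted, so these low values are uncertain.

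Lactate dehydrogenase was the least one-sided of these enzymes. LDHB, the subunit typical of heart and oxidative fibres, was at 125, 106 and 138 FPKM in kid, youth and adult. The ratio LDHA:LDHB was 7.85 in kid (7.55 to 8.17), 9.88 in youth (9.46 to 10.3) and 7.42 in adult (7.17 to 7.69). It was higher in youth than in either other library, while the intervals of kid and adult overlap. For adult against youth, LDHB was 1.30-fold higher (1.24 to 1.38) and LDHA 1.02-fold lower, which turned to higher under both ratio-based scalings. For adult against kid both were higher, LDHB 1.104-fold (1.05 to 1.16) and LDHA 1.04-fold (1.03 to 1.06). PGAM1 had the same order as LDHB, 1.36-fold higher in adult than in youth (1.23 to 1.51), opposite to PGAM2. LDHC, the testis subunit, was at 1.65, 1.81 and 2.88 FPKM, from 29, 30 and 59 reads. LDHAL6B was at 0.118, 0.125 and 0.305 FPKM. By plain FPKM LDHC was 1.75-fold higher in adult than in kid (1.104 to 2.83). On the log2(FPKM + 1) scale, which understates ratios at such low levels, 0 of the 7 isozymes with a mean of at least 1 FPKM were 1.5-fold apart in each comparison, beside the 5.27%, 10.9% and 9.24% of all genes.

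**Figure D3:**
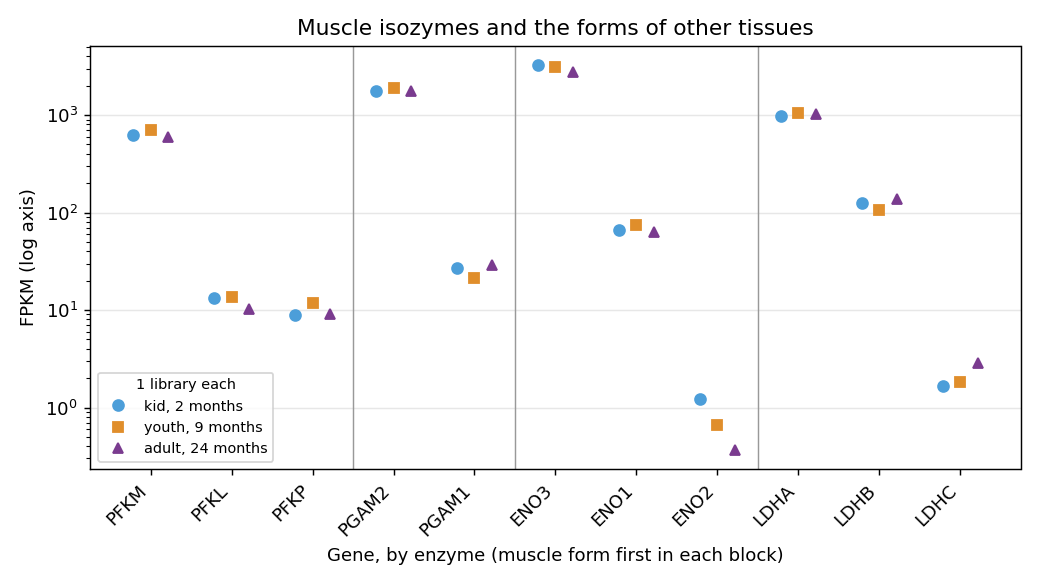
FPKM (log axis) of the muscle forms of phosphofructokinase, phosphoglycerate mutase, enolase and lactate dehydrogenase and of the forms of other tissues, with 1 point per library. PFKM, PGAM2 and ENO3 hold at least 96.5% of their enzyme's FPKM in each library, and LDHA stands 7.42 to 9.88 times above LDHB.

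Some genes that feed and control the pathway were further apart between libraries than any of its 10 enzymes. Of 13 genes for glucose phosphorylation and the control of phosphofructokinase, 10 had a mean of at least 1 FPKM, with a median difference of 0.05 for youth minus kid, 0.28 for adult minus youth and 0.13 for adult minus kid on the log2 scale. On the log2(FPKM + 1) scale 1 was at least 1.5-fold higher and 0 lower for youth over kid, beside 1.5% and 3.77% of all genes. By plain FPKM the scarce FBP1, at 3.06, 1.76 and 2.59 FPKM in kid, youth and adult, was 1.74-fold lower in youth than in kid (1.12 to 2.75). For adult over youth it was 1 and 1, beside 5.4% and 5.45%, and for adult over kid 2 and 1, beside 2.6% and 6.64%. PFKFB3, which makes fructose 2,6-bisphosphate, an activator of phosphofructokinase, was at 74.0, 135 and 26.4 FPKM in kid, youth and adult. It was 1.82-fold higher in youth than in kid (1.72 to 1.93) and 2.80-fold lower in adult than in kid (2.57 to 3.04). Its order of libraries, highest in youth and lowest in adult, was that of PFKM, ALDOA, GAPDH and PFKFB4, and its ratios were wider. For PFKM, ALDOA and GAPDH the adult-kid part of that order turned under both ratio-based scalings, and for PFKM also after quantile normalization. A link between PFKFB3 and PFKM was not tested. Hexokinase 2 (HK2), the insulin-responsive enzyme that traps glucose in muscle, was at 8.12, 11.0 and 16.5 FPKM, and it was 2.03-fold higher in adult than in kid (1.85 to 2.23). Hexokinase 1 (HK1) was at 15.9, 17.2 and 16.7 FPKM in kid, youth and adult, a range of 1.08. TIGAR, which lowers fructose 2,6-bisphosphate, was at 7.34, 7.87 and 19.8 FPKM, 2.70-fold higher in adult than in kid (2.41 to 3.03). FBP2, the muscle fructose bisphosphatase that opposes phosphofructokinase, was the most abundant of this list at 404, 361 and 516 FPKM. The other enzymes that make fructose 2,6-bisphosphate did not share one order: PFKFB4 was at 72.4, 89.9 and 62.8 FPKM, lowest in adult like PFKFB3, whereas PFKFB1 at 27.7, 27.9 and 31.7 FPKM and PFKFB2 at 7.14, 6.42 and 9.15 FPKM were highest there. PFKM itself had a range of 1.17 over the 3 libraries.

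Of 13 genes that handle lactate, pyruvate and cytosolic NADH, 8 were lower and 2 higher in youth than in kid beyond counting error (median -0.24). Beside them stood 26.9% and 11.6% of all genes and 50.6% and 30% of the 630 abundant ones. In adult 10 were higher and 3 lower than in youth beyond counting error, with a median of 0.44, beside 22.3% and 27% of all genes and 48.4% and 37% of the 630 abundant ones. At 1.5-fold on the log2(FPKM + 1) scale, 0 were apart in youth against kid, where SLC16A7 was 1.52-fold higher by plain FPKM (1.22 to 1.90). In adult 5 were higher and 2 lower than in youth at 1.5-fold, beside 5.4% and 5.45% of all genes, and 2 were higher and 1 lower than in kid, beside 2.6% and 6.64%. SLC16A3, the lactate exporter of fast fibres, was at 30.9, 30.2 and 72.5 FPKM in kid, youth and adult, 2.40-fold higher in adult than in youth (2.24 to 2.57). SLC16A1, the transporter that oxidative fibres use to take up lactate, was at 47.2, 39.5 and 63.0 FPKM. Both transporters were thus highest in adult. In the malate-aspartate shuttle, which moves NADH electrons into mitochondria, MDH1 was at 236, 193 and 287 FPKM in kid, youth and adult, and GOT1 at 125, 84.1 and 229.8 FPKM, with GOT1 2.73-fold higher in adult than in youth (2.61 to 2.86). GPD2, the mitochondrial enzyme of the glycerol phosphate shuttle, was at 41.5, 41.8 and 13.9 FPKM, 2.98-fold lower in adult than in kid (2.77 to 3.21). Its cytosolic partner GPD1 was at 171, 181 and 153 FPKM. GPD2 did not differ beyond counting error between youth and kid, at a ratio of 1.007 (0.953 to 1.06).

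**Figure D4:**
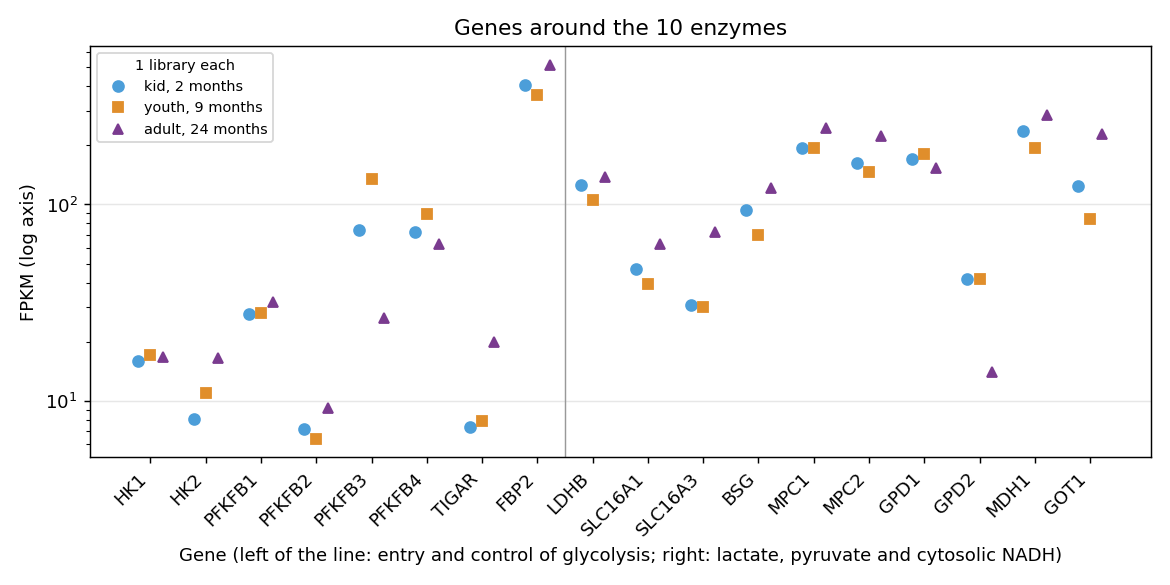
FPKM (log axis) of genes for the entry and control of glycolysis (left of the line) and for lactate, pyruvate and cytosolic NADH (right), with 1 point per library. PFKFB3 and GPD2 have their lowest point in adult at 26.4 and 13.9 FPKM, and HK2, TIGAR, FBP2, SLC16A3 and GOT1 have their highest there.

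Transcription factors known to act on glycolytic genes showed no common direction, with 13 of 14 listed genes found. Of these 13, 4 were at least 1.5-fold higher in adult than in youth (ESRRA, ESRRB, ESRRG and PPARGC1A) and 1 lower (MYC), beside 5.4% and 5.45% of all genes. The same 4 were that far higher, and MYC lower, in adult than in kid, beside 2.6% and 6.64% of all genes. MYC, which activates many glycolytic genes in growing cells, was at 23.3, 16.1 and 5.77 FPKM in kid, youth and adult. HIF1A, the oxygen-sensitive factor, was at 9.00, 9.25 and 6.38 FPKM, in adult 1.45-fold lower than in youth (1.27 to 1.65). ESRRG and PPARGC1A, known mainly as drivers of oxidative genes, also differed, with ESRRG at 12.2, 3.40 and 21.4 FPKM and PPARGC1A at 26.1, 43.3 and 130.5 FPKM. Both were highest in adult, and MYC was lowest there.

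The 9 fast-fibre genes measured had a median log2 difference of 0.19 for youth minus kid, with 6 higher and 3 lower beyond counting error, and of -0.15 for adult minus youth, with 4 higher and 5 lower. Among the 630 abundant genes 30% and 50.6% were higher and lower beyond counting error in youth against kid, and 48.4% and 37% in adult against youth. The enzymes' medians were 0.12 and -0.14. The 8 slow-fibre genes had medians of -0.13 and 0.14. Beyond counting error 1 was higher and 7 lower in youth than in kid, and 6 were higher and 2 lower in adult than in youth. MYL3, the slow essential light chain, was at 853, 406 and 948 FPKM in kid, youth and adult. MYL2, the most abundant and the only one higher in youth than in kid, was at 6456, 7509 and 6873 FPKM. No row was found for MYH7 of the slow list or for TNNI2 and TNNC2 of the fast list. Within the fast list the order of libraries differed between genes: ACTN3, the fast Z-disc actinin, was at 1172, 1491 and 1154 FPKM in kid, youth and adult and the type 2X heavy chain MYH1 at 4693, 5942 and 2636, both highest in youth, while the light chain MYLPF was at 10021, 8969 and 10260.5, lowest there. Parvalbumin (PVALB), a calcium buffer of fast fibres, was at 1.33, 11.7 and 1.24 FPKM, and the type 2B heavy chain MYH4 at 1.63, 1.06 and 0.219 FPKM. Their part in the enzymes' differences was not tested, and in whole muscle fewer cells of a type and less RNA per cell cannot be told apart. Markers of other cells also differed. The sum of 6 fibroblast markers, none of them at 0, was 980, 1231 and 840 FPKM, with 4 of 6 higher in youth than in kid and 6 of 6 lower in adult than in youth. Adipocyte markers were lower in youth than in kid in 4 of 4 measured at 1 FPKM or more on average, and macrophage markers lower in adult than in youth in 5 of 5. Of all 12121 genes, 4322 were higher and 7799 lower in youth than in kid. For adult against youth 5739 were higher and 6382 lower, so in each comparison taken alone more genes were lower than higher. How many genes were lower in both was not counted. The sums of 5 macrophage markers were 53.8, 61.3 and 30.04 FPKM, of 5 adipocyte markers 247, 98.6 and 111 FPKM, of 5 endothelial markers 158, 140.0 and 135 FPKM, and of 5 smooth muscle markers 439, 326 and 451 FPKM. Of 2 erythroid markers found, ALAS2 and SLC4A1, both were at 0 in kid and youth and at 0.0276 and 0.0173 FPKM in adult. The part of these cells in the results was not tested.

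GAPDH often serves as the reference in measurements of single genes, so its range was set beside that of 11 other genes in such use. Its highest library was 1.13 times its lowest. The 11 others ran from 1.07 for TBP, a general transcription factor, to 2.28 for YWHAZ, a 14-3-3 protein, with RPLP0 and HPRT1 at 1.13 like GAPDH. Several have far fewer reads than GAPDH, down to 43, 47 and 68 in kid, youth and adult for GUSB, whose adult over kid ratio of 1.36 included 1 in its interval (0.915 to 2.04), so no rank of GAPDH among them is given. PPIA, cyclophilin A, was at 119, 95.3 and 74.7 FPKM in kid, youth and adult. RPLP0, a ribosomal protein and the most abundant of the 11, was at 750, 665 and 662 FPKM. Of the 10 enzymes 3, namely LDHA, ALDOA and PGAM2, had a narrower range than GAPDH. Among the 630 abundant genes 47.1% had a highest library less than 25% above their lowest, as had 9 of the 10 enzymes.

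**Figure D5:**
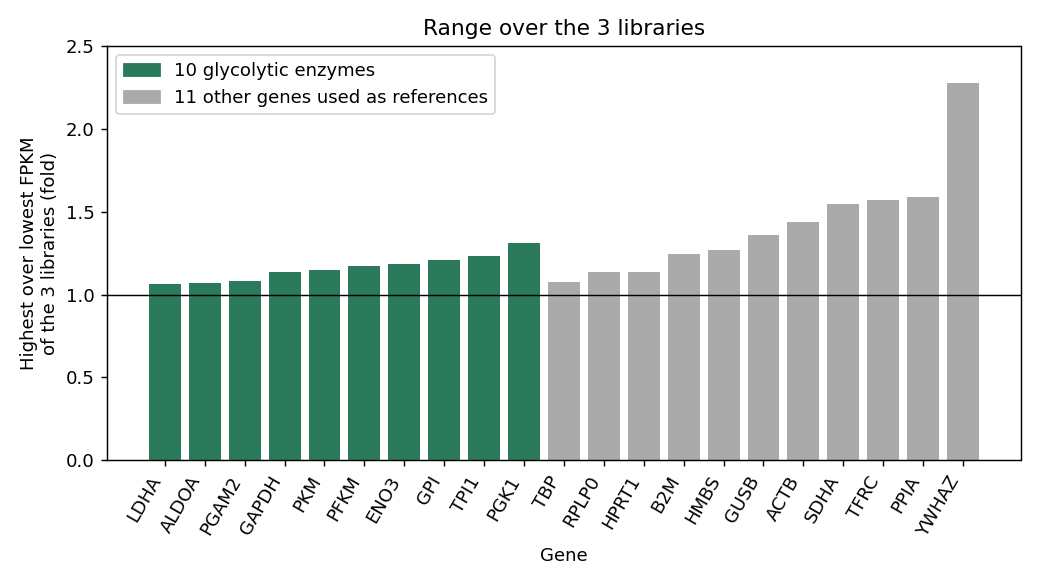
Highest over lowest FPKM of the 3 libraries (fold, bars from 0, line at 1) for the 10 glycolytic enzymes and 11 other genes used as references. The enzymes run from 1.07 to 1.31 and the other genes from 1.07 to 2.28.

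Of 541 named genes averaging 100 FPKM or more, the 5 whose differences lay closest to the medians of the 10 enzymes (Euclidean distance of the youth-kid and adult-youth differences over 3 libraries) were PDLIM1, DDIT4L, SOD1, TMBIM6 and SLN. PDLIM1, a protein of the actin cytoskeleton, was at 184, 201 and 182 FPKM in kid, youth and adult, at a distance of 0.0088. SLN, sarcolipin, which regulates the calcium pump, was at 2094, 2266 and 2003 FPKM (distance 0.043). Among the enzymes PGAM2 lay nearest to the medians at 0.025 and GAPDH next at 0.045, while TPI1 was farthest at 0.36, followed by PGK1 at 0.30 and ENO3 at 0.20.

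In the table's own annotation, 6 of the 10 rows carried the term glycolysis, and TPI1, GAPDH, PGAM2 and LDHA did not. Only GAPDH had further rows of its enzyme name, 2 in number, a GAPDH-like gene and a pseudogene, with at most 0.303 FPKM. In the goat assembly ARS1.2, 4 of the 10 overlap another gene: GPI and ALDOA a long non-coding RNA each, TPI1 the gene SPSB2 and PGAM2 the gene DBNL. The labels do not tell whether counting used strand, so reads of overlapping genes may be mixed. SPSB2 was at 2.97, 3.11 and 6.22 FPKM and DBNL at 18.7, 15.6 and 12.9 FPKM in kid, youth and adult, far below TPI1 and PGAM2.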

How the data were processed

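RNA of 3 libraries, 1 each for kid, youth and adult longissimus dorsi, was analysed from 1 table. The FPKM values were made and deposited by the authors; FastQC, TopHat2 and DESeq are named without version or role, per the submitters' processing notes. The sources used here give no build, annotation or counter. Members and gene lists were chosen with earlier results of these data known. Counts at a fold use the log2(FPKM + 1) scale and printed folds are plain FPKM ratios. Genes were found by RefSeq symbol (assembly ARS1.2, names and overlaps only) and otherwise by product text, and 7 of 136 listed symbols had no row. One listed reference gene is not reported here.

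Reads were recovered from the steps between libraries: totals of 15829474, 14920689 and 18399385 in kid, youth and adult made all 16054 entries above 0 in 3 libraries whole within 5e-05 of a read, plus a relative rounding allowance of 6e-10. For a 1 kb gene 1 read equalled 0.0632, 0.0670 and 0.0543 FPKM. The floor of 3 reads was 0.190, 0.201 and 0.163 FPKM. Ratios are of FPKM, with exact (Clopper-Pearson) 95% intervals. Differences are of log2(FPKM + 1) at a mean of at least 1 FPKM. The background at 100 FPKM, the scaling to GAPDH and the counts at 25% under each scaling were chosen after seeing the data. Steps were checked on simulated reads. Beside all 10 enzymes, the rule for named genes took the most abundant gene of a list, up to 3 with the widest difference, the isozymes, and the 5 genes nearest to the enzymes; cell marker lists are given as sums. ACTN3, HK1, SLC16A1, SLC16A7, FBP1, GPD1, PFKFB1, PFKFB2, PFKFB4, HIF1A, ESRRA, ESRRB, TBP, HPRT1, GUSB and the further genes in the plot of control and lactate genes were chosen after their values were seen. Computations used Python 3.11.15, numpy 2.4.6, scipy 1.17.1 and pandas 2.3.3.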

Additional observations from a re-analysis of the deposited data

How the results depend on the processing

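No enzyme was 1.5-fold apart under any scaling, pseudocount or filter tried, and none at a fold of 2; at a difference of 25% the count was 1 for youth against kid (PGK1). By the median of ratios or the trimmed mean that count was 2 (GPI, PGK1), and after quantile normalization 3 (with PFKM). TPI1 passed 25% for adult against kid under these 3 scalings and when scaled to GAPDH, which also made it pass for adult against youth and left 0 for youth against kid. PGK1 passed for adult against youth at the same sum and, with ALDOA, after quantile normalization. The median difference of the 10 (log2) for youth against kid, 0.12 as deposited, was 0.23 by the median of ratios, 0.22 by a trimmed mean of log ratios, 0.16 after quantile normalization and -0.0065 when scaled to GAPDH. For adult against youth, -0.14 as deposited, it was -0.20 with the libraries brought to the same sum, -0.10 by the median of ratios, -0.094 by the trimmed mean, -0.29 after quantile normalization and 0.044 when scaled to GAPDH. For adult against kid, 0.03 as deposited, it was -0.012 at the same sum, 0.17 by the median of ratios, 0.18 by the trimmed mean and 0.084 when scaled to GAPDH. A scaling to GAPDH takes out whatever GAPDH shares with the other enzymes, by construction; it moved the median of all genes by -0.11 and 0.15 in the first 2 comparisons.

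Single enzymes changed sign as follows, by the median of ratios and then by the trimmed mean. ENO3 was at 0.033 and 0.032 for youth against kid, and LDHA at 0.0062 and 0.013 for adult against youth. For adult against kid, PFKM was at 0.083 and 0.089 (0.046 after quantile normalization), ALDOA at 0.083 and 0.089 and GAPDH at 0.088 and 0.093. PGAM2, at 0.0052 as deposited and within counting error, was at -0.040 at the same sum and -0.049 after quantile normalization. Scaled to GAPDH, ALDOA was at -0.084, TPI1 at -0.046, PGAM2 at -0.013 and LDHA at -0.039 for youth against kid. On the same scaling GPI was at 0.020, ALDOA at 0.080, PGAM2 at 0.069, ENO3 at 0.0070, PKM at 0.081 and LDHA at 0.15 for adult against youth. The cause was not tested. Pseudocounts of 0.1 and 5, no filter on low values and the addition of GAPDH copies changed no sign. No paired analysis was possible because each stage has 1 library, and no replicate could be left out. Depth limits none of the 10 enzymes, the lowest of which had 8111 reads, but it does limit isozymes such as ENO2 with 15 to 43 reads.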
